A study of Homo sapiens with 8 samples.

Results

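Chromosome 14 carried 1950 of the 65646 intervals in which folded G-quadruplexes (G4s) were mapped in K562 and HepG2 chromatin. Every interval of the 4 deposited lists that lies on chromosome 14 was taken, whatever its width or class, so the members were selected on position alone. These were 179 of 9205 high-confidence and 357 of 19249 lower-confidence intervals in K562, and 339 of 8805 and 1075 of 28387 in HepG2. The chromosome itself was chosen by the measured numbers of intervals per line, with its excess of HepG2 intervals already known, so its ratio between the lines, its rank among chromosomes and its shares of common and line-only intervals and genes are given as descriptions.

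K562 is a chronic myelogenous leukemia line with erythroid features, and HepG2 is a hepatocellular carcinoma line that keeps many hepatocyte genes active. Both lines were profiled without treatment by G4 ChIP-seq, in which sonicated, cross-linked chromatin was treated with RNase A and precipitated with the antibody BG4, and the labels give 3 G4 libraries and 1 input library per line. The high-confidence lists, whose intervals are called peaks here, hold stretches found in at least 5 of 8 replicates of K562 or 6 of 9 of HepG2, and the lower-confidence lists hold those found in at least 2. Per the study's methods, these replicates are repeat technical runs of 3 independent experiments per line, so a lower-confidence stretch may rest on repeats of the same experiment. Each line was thus represented by 1 merged list per threshold, without a height, a q-value or a read depth for any interval, so no test between the lines was possible, and the 95% intervals given below cover the counting of intervals only.

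A G4 is a 4-stranded fold of guanine-rich DNA, built of stacked planar tetrads of guanines that are joined by loops. In cells such folds are found mostly in open, nucleosome-poor chromatin, and above all just upstream of the transcription start sites (TSSs) of active genes. A map of folded G4s therefore tends to differ between cell types with their active promoters and enhancers, although the underlying DNA sequence is shared.

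Some of the widest peaks of each class held a complete G4 motif, although most peaks did not. A complete G4 motif was defined as 4 runs of at least 3 G joined by loops of 1 to 7 bases of any kind, on either strand. The lines below give 5 such motifs from common and line-only peaks, read on the G-rich strand of GRCh37 from 5′ to 3′, with the runs of G in capitals.
SIVA1: GGGtGGGcGGGtccgtGGG
CCNK: GGGGcGGGaccgacGGGatGGG
CCDC88C: GGGGtGGGGcctGGGGagaGGGG
DCAF11: GGGcaGGGatGGGagcgaGGG
SEC23A: GGGGacGGGGcgtgaGGGcaggaaGGGGG

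The SIVA1 motif (chr14:105219250-105219268, minus strand) lay inside a common peak of 511 bp in K562 and 616 bp in HepG2, upstream of a gene that promotes apoptosis. The CCNK motif (chr14:99947535-99947556, plus strand) lay inside a common peak of 530 bp in K562 and 548 bp in HepG2, just inside CCNK, the gene of cyclin K, a partner of the transcription kinases CDK12 and CDK13, and the peak also covers the divergent promoter of the methyltransferase gene SETD3. The CCDC88C motif (chr14:91769837-91769859, minus strand) lay in an intron of that gene, in the widest peak found in K562 alone, of 205 bp. The DCAF11 motif (chr14:24583024-24583044, minus strand) and the SEC23A motif (chr14:39572450-39572478, plus strand) lay at promoters of genes for a ubiquitin ligase adaptor and for a coat protein of vesicles leaving the endoplasmic reticulum, in peaks of 496 bp and 405 bp that were found in HepG2 alone. Fully G-rich motifs thus occurred in the common class as well as in the peaks of each line alone.

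The chromosome held far more HepG2 than K562 intervals. The ratio of HepG2 to K562 peaks was 1.89 (95% interval 1.58 to 2.27), against 0.938 on all other chromosomes together. In the lower-confidence lists it was 3.01 (2.67 to 3.39), against 1.45 elsewhere. Among the 23 chromosomes with K562 peaks, chromosome 14 ranked 1 for the first ratio and 2 for the second, in each case beside chromosome 20, whose ratios were 1.86 and 3.76.

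**Figure D1:**
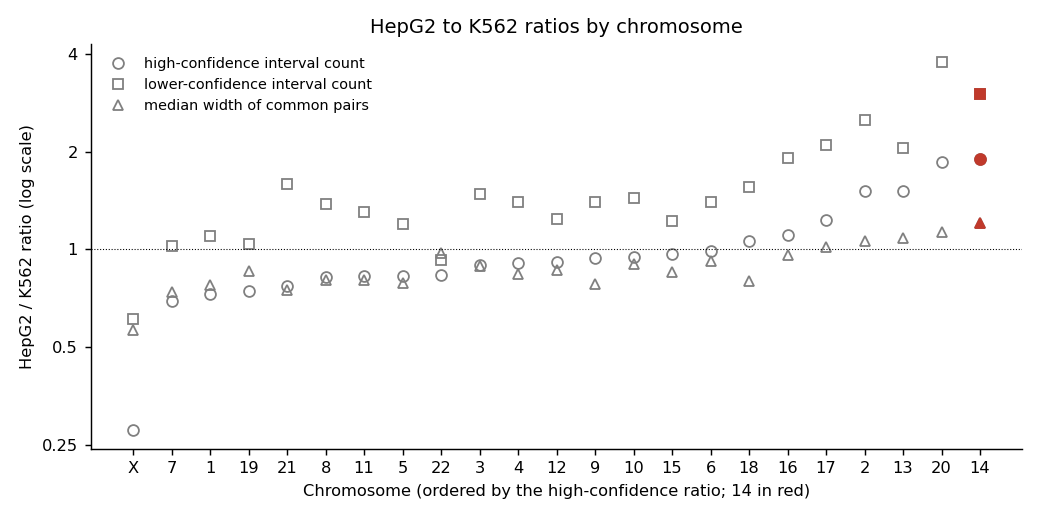
Ratio of HepG2 to K562 (log scale) for each chromosome, for the number of high-confidence intervals (circles), the number of lower-confidence intervals (squares) and the median width of common peak pairs (triangles), ordered by the first. Chromosome 14, in red, sits at 1.89, 3.01 and 1.21.

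The excess came with an uneven overlap. A peak was called common where it shared at least 1 bp with a peak of the other line. In K562, 138 of the 179 peaks were common (77.1%, 70.4 to 82.6), where 51.1% of K562 peaks over the whole series were. Another 25 (14%, whole series 24.5%) met a lower-confidence HepG2 interval only, and 16 (8.94%, whole series 24.4%) met no HepG2 interval at all. The share of K562-only peaks was the lowest of the 23 chromosomes. In HepG2 the balance was the opposite. There, 136 of 339 peaks were common (40.1%, 35.0 to 45.4, whole series 53.7%), 55 (16.2%, whole series 13.4%) met a lower-confidence K562 interval only, and 148 (43.7%, 38.5 to 49.0, whole series 32.9%) were found in HepG2 alone. The numbers of common peaks were nearly equal, so these shares largely follow from the ratio for which the chromosome was picked.

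Merging all 4 lists gave 1170 separate loci. Of these, 134 held a peak in both lines (11.5%, against 12.4% on the other chromosomes), 134 a HepG2 peak and no K562 interval (11.5%, against 7.03%), and 16 a K562 peak and no HepG2 interval (1.37%, against 5.57%). The bulk, 687 loci (58.7%, against 41.0% on the other chromosomes), held a lower-confidence HepG2 interval and nothing in K562. Of the 757 lower-confidence HepG2 intervals without a peak inside, 70 (9.25%) met a lower-confidence K562 interval, against 24.2% elsewhere. In the other direction, 96 of 183 such K562 intervals (52.5%) met one of HepG2, against 33.5% elsewhere. A lower-confidence interval held a peak about as often as elsewhere, in 174 of 357 cases in K562 (48.7%, whole series 45.3%) and 318 of 1075 in HepG2 (29.6%, whole series 29.2%). Of these, 169 in K562 and 300 in HepG2 held 1 peak. No K562 interval held more than 2 peaks, and the widest of the 5 with 2 was at BRF1, which encodes a subunit of the factor that recruits RNA polymerase III (chr14:105767107-105767964). In HepG2, 3 intervals held 3 peaks, the widest at the start of a long noncoding RNA gene (chr14:39901355-39902320).

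Where both lines had a peak, the HepG2 peak was usually the wider. Common peaks formed 129 pairs in which 1 peak of each line met only the other. HepG2 had the wider peak in 92 of them (71.3%, 63.0 to 78.4), whereas it did so in 36.5% of the pairs over the whole series. Median widths were 188 bp in K562 and 271 bp in HepG2, and the median of the HepG2 to K562 width ratio was 1.21, with quartiles at 0.960 and 1.71. On the other chromosomes the medians were 242 bp and 209 bp and the median ratio 0.879. Chromosome 14 was not the only one of this kind. HepG2 was also the wider in most pairs on chromosomes 20 (64.4%), 2 (57.6%), 13 (56.1%) and 17 (52.2%), and on none of the remaining chromosomes. Width was not used to pick the chromosome, but width and number come from the same calls in the same replicates. Across the 23 chromosomes the count ratio and the median width ratio ran together (Pearson r = 0.926, Spearman rho = 0.820), and they still did so over the 21 chromosomes left without 14 and 20 (r = 0.886, rho = 0.764). These points come from the same merged libraries and are given as a description.

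**Figure D2:**
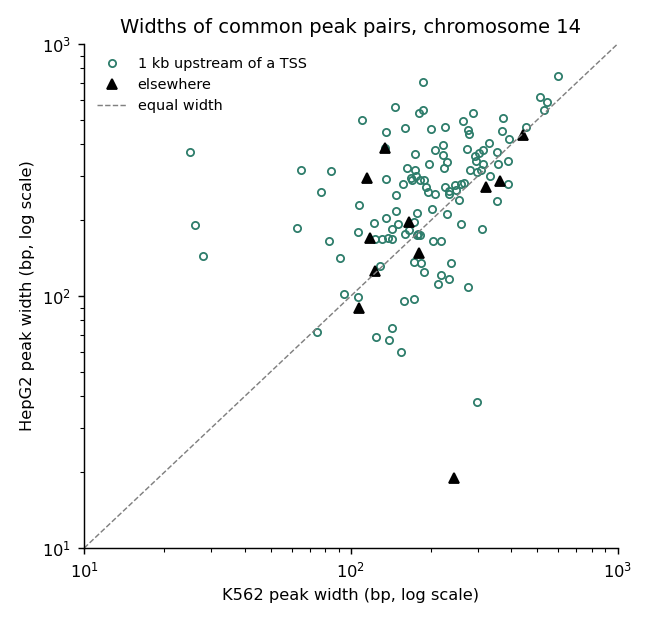
Width in bp of each of the 129 common pairs on chromosome 14 (log scales), K562 across and HepG2 up, by whether the K562 peak has its centre within 1 kb upstream of a TSS. In 92 pairs the point is above the dashed line of equal width.

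The width ratio was not even along the chromosome. Among steps of 5 Mb with at least 5 pairs it was highest on the proximal long arm, where the median ratio was 1.83 over 23 pairs at 20 to 25 Mb, 1.69 over 5 pairs at 30 to 35 Mb and 1.84 over 8 pairs at 35 to 40 Mb. HepG2 had the wider peak in 21, 5 and 8 of these pairs. At 100 to 105 Mb it was 0.847, with the HepG2 peak wider in 7 of 23 pairs. Of the 10 steps with at least 5 pairs, 9 had a median ratio above 1. Single pairs at promoters ran from a far wider HepG2 peak to a wider K562 peak. In the proximal part, the pair at CHD8, a chromatin remodeller gene, was 135 bp wide in K562 and 447 bp in HepG2, that at the arginine methyltransferase gene PRMT5 84 bp and 312 bp, and that at NFKBIA, which encodes the NF-kappaB inhibitor IκBα, 196 bp and 335 bp. Further along, the pair at MAX, which encodes the dimer partner of MYC, was 63 bp and 186 bp wide. In the distal part, the pair at YY1 was 352 bp wide in K562 and 238 bp in HepG2, and HSP90AA1, the gene of a stress-inducible chaperone, had a pair of 310 bp and 185 bp at one start and of 296 bp and 311 bp at another.

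Assembled sequence begins at 19000001 and the chromosome ends at 107349540, so 19 of the 22 steps of 5 Mb could hold intervals. HepG2 had more peaks than K562 in 16 of these steps, K562 had more in 2 and the counts were equal in 1. The fullest step was 20 to 25 Mb, with 150 protein-coding genes, 32 K562 and 75 HepG2 peaks, and 62 and 212 lower-confidence intervals. Next was 100 to 105 Mb, with 48 protein-coding genes, 27 and 47 peaks, and 55 and 197 lower-confidence intervals. Of all peaks on the chromosome, K562 had 33.0% in this pair of steps (26.5 to 40.1), and HepG2 had 36.0% (31.1 to 41.2).

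The excess of HepG2 was greatest at 20 to 25 Mb by number, with 43 more peaks, and at 35 to 40 Mb by ratio. The latter step held 8 K562 peaks, all of them common, and 33 HepG2 peaks, of which 21 were found in HepG2 alone, a ratio of 4.13, and its lower-confidence ratio was 5.07 (15 against 76 intervals). It holds FOXA1, PSMA6, NFKBIA and SEC23A. K562 had the more peaks only in 2 sparse steps, with 1 against 0 at 15 to 20 Mb and 2 against 0 at 85 to 90 Mb. Among the 13 steps with at least 5 K562 peaks the ratio ran from 1.08 to 4.13, so HepG2 was ahead in each.

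The distal end stood apart in the lower-confidence lists. From 105 Mb to the end, K562 had 13 peaks and HepG2 14, a ratio of 1.08, while the lower-confidence lists held 37 and 144 intervals, a ratio of 3.89. The last 2 steps held 31.7% of the lower-confidence HepG2 intervals (29.0 to 34.6) and 18.0% of the HepG2 peaks (14.3 to 22.4). For K562 the corresponding shares were 25.8% and 22.3%. Of the protein-coding genes, 11.9% lie there, and GC content was 48.7% and 50.6% in these steps against 40.9% for the chromosome.

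Interval number followed gene number. Over the 19 assembled steps, the Pearson r between peaks and protein-coding genes was 0.876 in K562 and 0.924 in HepG2, with Spearman rho at 0.917 and 0.908. For the lower-confidence lists r was 0.840 and 0.774. Steps share base composition with gene density, and these values are descriptions.

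Long stretches held no interval in either line. The longest, chr14:39902321-45366230, spans 5463910 bp at a GC content of 35.3% and holds only 2 protein-coding genes, LRFN5, which encodes a synaptic adhesion molecule, and FSCB, which encodes a sperm sheath protein. The step at 40 to 45 Mb within it was the single assembled step without any interval. The next longest, chr14:82000548-87140083, holds the adhesion gene FLRT2 alone.

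**Figure D3:**
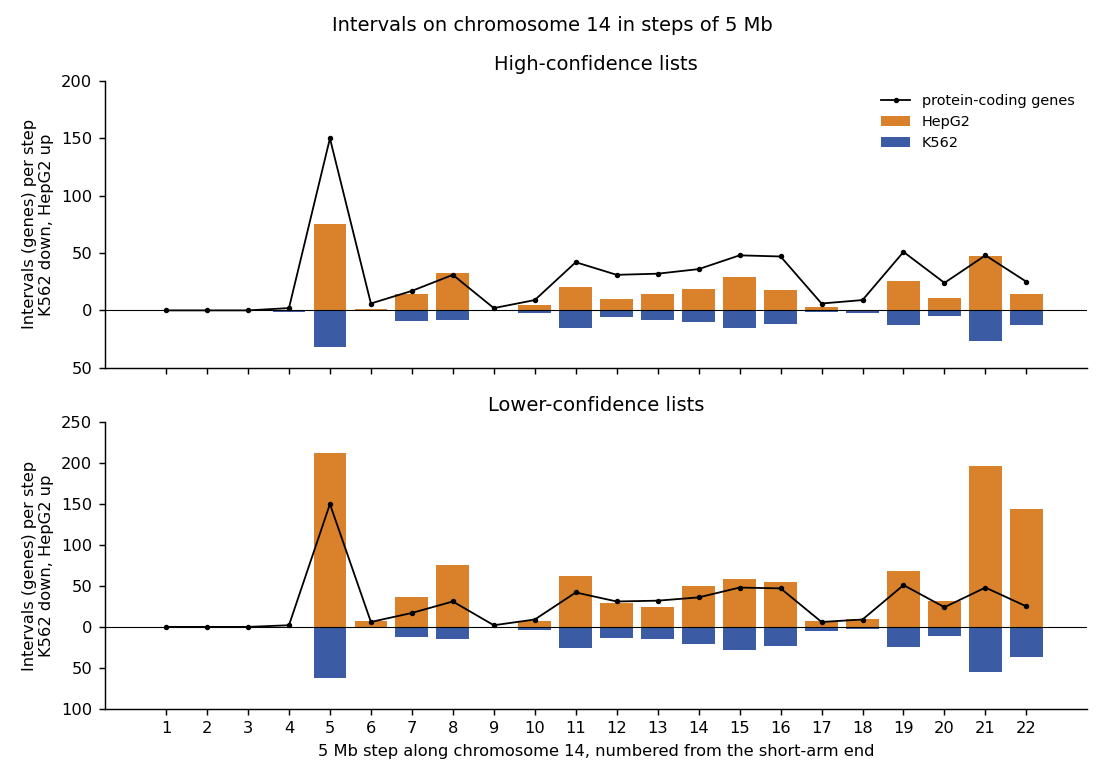
Number of intervals in each 5 Mb step of chromosome 14, HepG2 upward and K562 downward, for the high-confidence lists (top) and the lower-confidence lists (bottom), with the number of protein-coding genes as a line. Steps 5 and 21 are the fullest, step 8 has 33 HepG2 and 8 K562 peaks, and step 9 has none.

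Clusters of immune receptor genes held no peak in either line. No interval of any list was centred between the first and last of the 128 T cell receptor segments (chr14:22089991-23021099), although this cluster lies in the fullest step. Across the 176 immunoglobulin heavy chain segments (chr14:106053226-107288019) the lower-confidence lists held 2 intervals in K562 and 24 in HepG2, or 1.62 and 19.4 per Mb, against 4.04 and 12.2 per Mb over the assembled chromosome. This cluster covers 1.23 Mb of the step from 105 Mb to the end. That step held 37 lower-confidence intervals in K562 and 144 in HepG2, so most of them lay outside the cluster in both lines. Of the 27 olfactory receptor genes, none had an interval of any list within the 1 kb upstream of a TSS.

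Most peaks were upstream of a TSS. Each peak was assigned by its centre, with the 1 kb upstream of any TSS taken first. In K562, 152 of 179 peaks (84.9%, 78.9 to 89.4, whole series 79.6%) were upstream, and in HepG2 237 of 339 (69.9%, 64.8 to 74.5, whole series 68.3%). The difference of HepG2 minus K562 was -15.0 percentage points (-21.8 to -7.44), with 8.01 points more in introns (2.41 to 12.9) and 6.41 more between genes (1.58 to 10.6). Neither line differed from its own other chromosomes in the upstream share beyond counting error, with intervals of the difference from -0.649 to 9.96 points in K562 and -3.47 to 6.46 in HepG2.

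Common peaks were promoter peaks in both lines. In K562, 127 of 138 common peaks (92.0%, whole series 90.9%) and 5 of 16 K562-only peaks (31.3%, whole series 54.4%) lay upstream, a difference of 60.8 points (35.8 to 78.2). In HepG2 these were 125 of 136 (91.9%, whole series 90.8%) and 62 of 148 (41.9%, whole series 29.3%), a difference of 50.02 points (40.1 to 58.4). HepG2-only peaks of chromosome 14 were thus upstream 13.4 points more often than those of the other chromosomes (5.54 to 21.6). The HepG2 peaks that met only a lower-confidence K562 interval were upstream in 90.9% of cases, 18.1 points above the other chromosomes (7.29 to 23.9). Both classes are defined by K562 calls, which entered the ratio for which the chromosome was picked. These differences between chromosomes are therefore descriptions. For the 16 K562-only peaks the interval of that difference, -40.5 to 1.15 points, was too wide to read a direction.

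**Figure D4:**
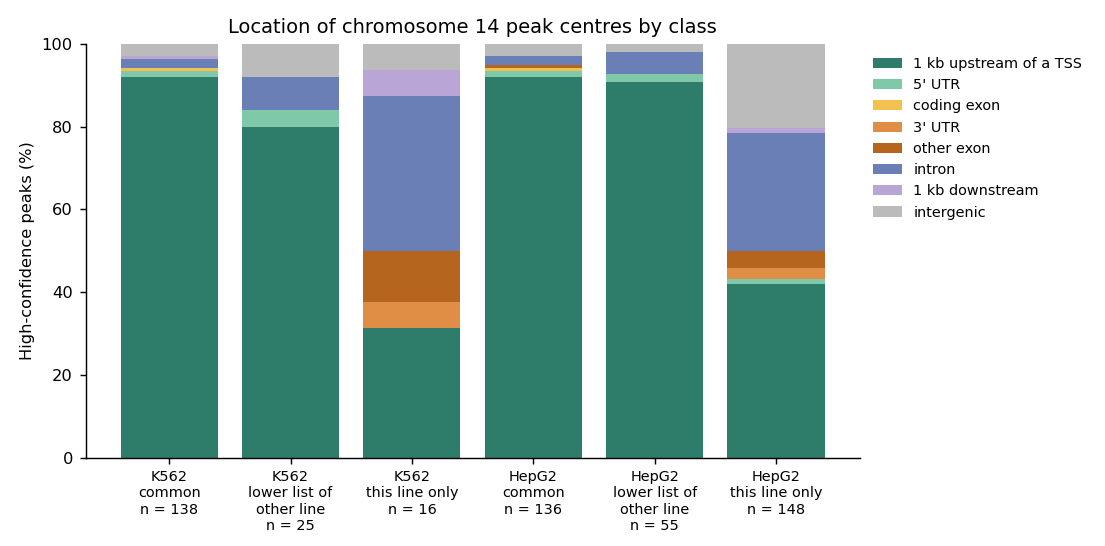
Share of high-confidence peaks of chromosome 14 (%) in each location class, by cell line and by whether the peak is common, meets only a lower-confidence interval in the other line, or is found in this line only. The upstream share is 92.0% and 91.9% of common peaks, 31.3% of K562-only and 41.9% of HepG2-only peaks.

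The 86 HepG2-only peaks outside promoters lay mostly far from a protein-coding TSS. Of these, 42 were in introns, 30 between genes and 4 in 3′ UTRs, and the median distance to the nearest protein-coding TSS was 13778.5 bp. Distances ran from 12 bp to 337911 bp, with 50 peaks over 10 kb away and 6 over 100 kb. By contrast, the 11 common HepG2 peaks outside promoters had a median of 3026 bp, although 4 of them were over 10 kb away. The 11 K562-only peaks outside promoters were about as far as the HepG2-only ones, with a median of 13811 bp. Several HepG2-only peaks came in groups, which were picked out with their values in view. Between PSMA6 and NFKBIA, a stretch of 83.6 kb without a protein-coding gene, HepG2 had 4 peaks of 99 to 468 bp, all of them HepG2-only, and 18 lower-confidence intervals, and K562 had none of either list. The gene body of CCDC85C, 104 kb, held 4 HepG2-only peaks of 7 to 266 bp and 1 lower-confidence K562 interval. In ITPK1, which encodes an inositol phosphate kinase, 4 of 5 HepG2 peaks were HepG2-only, and the single K562 peak, of 297 bp, was common. EVL, which encodes an actin regulator, held 2 K562 peaks within the gene, 1 of them K562-only, and 2 lower-confidence HepG2 intervals, while a HepG2 peak of 75 bp lay across its start.

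The classes also differed in sequence. In HepG2, common peaks had a median width of 271 bp, a median GC content of 69.2% and 9.49 CpG per 100 bp, whereas HepG2-only peaks had medians of 136 bp, 58.5% and 2.69. In K562, common and K562-only peaks shared a median GC content of 70.0%, with median widths of 185 bp and 127.5 bp and 10.0 and 5.10 CpG per 100 bp. A complete motif was found in 57 of 179 K562 peaks (31.8%, 25.5 to 39.0, whole series 32.6%) and 84 of 339 HepG2 peaks (24.8%, 20.5 to 29.6, whole series 20.6%). In HepG2 it was in 51 of 136 common peaks (37.5%, whole series 29.6%) and 22 of 148 HepG2-only peaks (14.9%, whole series 9.21%), a difference of 22.6 points (12.5 to 32.3). The common peaks were also the wider, with the medians above, and the part of width in this difference was not tested. In K562 it was in 45 of 138 common peaks (32.6%, whole series 35.1%) and 4 of 16 K562-only peaks (25%, whole series 27.8%), a difference of 7.61 points whose interval (-17.9 to 24.5) holds 0. Compared with the other chromosomes, the motif share was 8.09 points higher in common HepG2 peaks (0.289 to 16.6) and 5.96 points higher in HepG2-only peaks (0.989 to 12.6). Median widths here and elsewhere were 271 bp and 205.5 bp for common HepG2 peaks, and 136 bp and 135 bp for HepG2-only peaks. In common K562 peaks, with medians of 185 bp here and 240 bp elsewhere, the difference was -2.56 points (-9.96 to 5.75). The part of width was not tested. The classes depend on the ratio for which the chromosome was picked, so these differences are descriptions.

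The widest peak of each line was the same promoter. At PPP1R3E, which encodes a glycogen-targeting subunit of protein phosphatase 1, the K562 peak covered chr14:23770655-23771251 (597 bp) and the HepG2 peak chr14:23770568-23771313 (746 bp). Both lay upstream of the TSS and at over 70% GC, with values of 73.7% and 72.1%, yet neither held a complete motif, while 11 and 14 looser motifs with runs of only 2 G were found. The next widest common peaks were at TEDC1, which encodes a tubulin complex subunit (545 bp in K562 and 588 bp in HepG2, no motif), and at the CCNK and SIVA1 promoters above. DGLUCY, the gene of D-glutamate cyclase, followed in K562 with 453 bp against 468 bp in HepG2. At NRL, a HepG2 peak of 706 bp met a K562 peak of 187 bp, and the neighbouring DCAF11 promoter added 496 bp in HepG2 alone.

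The peaks found in K562 alone were narrower than these. After the CCDC88C intron, the widest were in an intron of EGLN3-AS1 (202 bp), upstream of LTBP2, which encodes a binding protein of latent TGF-beta (169 bp), near CDH24, a cadherin gene (168 bp), and in an intron of EVL (164 bp). In HepG2 alone the widest was chr14:95065490-95066126, of 637 bp, in an exon of a noncoding RNA gene, with its centre 11 bp downstream of that gene's TSS. It was at position -12913 from the nearest protein-coding TSS, that of SERPINA3, which encodes alpha-1-antichymotrypsin, a plasma protease inhibitor made in the liver. It held no complete motif and had a GC content of 55.7%. The others were at DCAF11, SEC23A and the stretch between PSMA6 and NFKBIA, where the peaks of 468 bp and 412 bp were 36815 bp and 25919 bp downstream of a PSMA6 TSS.

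Of the 616 protein-coding genes of chromosome 14, 166 had a K562 peak within the 1 kb upstream of a TSS (26.9%, whole series 34.6%) and 236 a HepG2 peak (38.3%, whole series 29.6%). Both lines shared 144 genes (23.4%, whole series 23.4%), which were 86.7% of the K562 genes and 61.0% of the HepG2 genes. The shared share was therefore that of the whole series, and the lines parted in the rest. A HepG2 peak with no K562 interval of either list was found at 43 genes (6.98%, whole series 2.26%), and the reverse at 2 (0.325%, whole series 3.17%). A total of 225 genes had no interval upstream in either line.

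The reverse pair were SPTB and LTBP2. SPTB, which encodes the beta-spectrin of the red cell membrane skeleton, had 98 bp of K562 peak in 2 pieces within 371 bp of lower-confidence interval, and none in HepG2. The 43 genes of HepG2 included FOXA1, which encodes a pioneer factor of liver and other endoderm, with 541 bp in 2 peaks, the widest total among the 43, and 1212 bp of lower-confidence interval. K562 had no interval of either list there. Next came SEC23A (405 bp), HNRNPC (328 bp), which encodes a nuclear RNA-binding protein, SERPINA10 (328 bp) and SERPINA1 (293 bp). The metabolic genes GPX2, which encodes a glutathione peroxidase (90 bp in 2 peaks), and DHRS4, which encodes a retinal reductase (240 bp), were also in this group. A peak between divergent genes counts for both, as the 148 bp peak of MRPL52 and SLC7A7 does.

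Gene lists were set beside the chromosome as a whole, where 23.4% of the 616 genes had a peak in both lines, 14.9% in HepG2 and not in K562, 3.57% in K562 and not in HepG2, and 36.5% had no interval. "Alone" here means without a peak of the other line in the 1 kb upstream of a TSS. The other line may still have a lower-confidence interval there or a peak nearby. Of 8 genes of translation, 4 had a peak in both lines and 3 in HepG2 alone, namely MRPL52, RPS29 and EIF2S1. Of 12 genes of splicing and RNA processing, 5 had a peak in both lines, such as PABPN1 (286 bp in K562 and 534 bp in HepG2), and HNRNPC, RBM23, RBM25 and PAPOLA had one in HepG2 alone. Of 15 genes of chromatin and the transcription machinery, 7 had a peak in both, HIF1A, MAX, YY1 and BRF1 among them, and 5 in HepG2 alone, which were SUPT16H, TOX4, EAPP, GTF2A1 and DICER1.

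Among 8 proteasome genes, 3 had peaks in both lines (PSMA6, PSME1 and PSME2) and the other 5 had no peak in either. The list of DNA repair and telomere genes had both lines at 5 of 11, with TINF2, which encodes a shelterin protein, at 288 bp and 351 bp. The 5 include RPS6KA5, which encodes a signalling kinase rather than a repair or telomere protein, and whose peak is also the one at DGLUCY. APEX1, which encodes the abasic site endonuclease, had 195 bp in HepG2 alone. Among 19 genes of signalling and stress, 9 had peaks in both lines, and HSPA2 had 125 bp in HepG2 alone.

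None of 22 developmental and lineage transcription factor genes had a peak upstream in both lines, and 12 had no interval. FOXA1, NRL and ESR2, which encodes an estrogen receptor, had a peak upstream in HepG2 alone. At NRL, 1 of the 2 HepG2 peaks was the common peak of 706 bp, whose K562 partner of 187 bp lay outside the upstream window. The ESR2 peak was 9 bp wide, and K562 had 295 bp of lower-confidence interval there and 335 bp at NRL, whereas at FOXA1 it had none. NKX2-1, OTX2, SIX6 and BCL11B were among the 12 without any interval.

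The SERPINA cluster encodes plasma protease inhibitors and hormone carriers, many of them secreted by the liver. Over its 344 kb (chr14:94746797-95090392) HepG2 had 7 peaks of 59 to 637 bp, all of them HepG2-only, and 20 lower-confidence intervals, and K562 had no interval. Of the 11 genes listed for the cluster, 4 had a HepG2 peak upstream, namely SERPINA1, the gene of alpha-1-antitrypsin (293 bp), SERPINA6, the gene of corticosteroid-binding globulin (182 bp), SERPINA10 (328 bp) and SERPINA5, the gene of the protein C inhibitor (59 bp). The 11 include GSC, which is not a SERPINA gene and had no interval upstream. Of 26 liver and metabolism genes, 6 had peaks in both lines, such as PCK2 (225 bp in K562 and 469 bp in HepG2) and ALDH6A1 (186 bp and 549 bp). In HepG2 alone, 4 of the 26 had a peak, which was 240 bp wide at DHRS4, 151 bp at ACOT1, 81 bp at AHSA1 and 13 bp at PGF. The list is loose, as AHSA1 is a co-chaperone gene and PGF a growth factor gene, neither of them particular to liver or metabolism. Both counts of this list were close to the shares of all genes of the chromosome, 23.4% in both lines and 14.9% in HepG2 alone. SLC10A1, which encodes the bile acid importer of hepatocytes, had no interval in either line.

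Of 13 erythroid and blood genes, DCAF11 and IRF9 had peaks in both lines, SPTB in K562 alone and SLC7A7 in HepG2 alone. The granzyme genes GZMB and GZMH and the cathepsin gene CTSG had no interval. None of the 13 RNase A genes and none of the 4 genes listed for the imprinted DLK1-MEG3 region had a peak upstream in either line. Across the span of the RNase A genes (553 kb), HepG2 nevertheless had 4 peaks of 67 to 166 bp, all of them HepG2-only, and 14 lower-confidence intervals, against 3 lower-confidence intervals in K562. From DLK1 to DIO3, a stretch of 838 kb, HepG2 had 5 peaks of 19 to 242 bp, all of them HepG2-only, and 13 lower-confidence intervals, and K562 had none. Of the cardiac myosin genes, MYH7 had a lower-confidence HepG2 interval of 151 bp and MYH6 had nothing. These are counts over small lists with results of these data known, and expression was not analysed here.

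**Figure D5:**
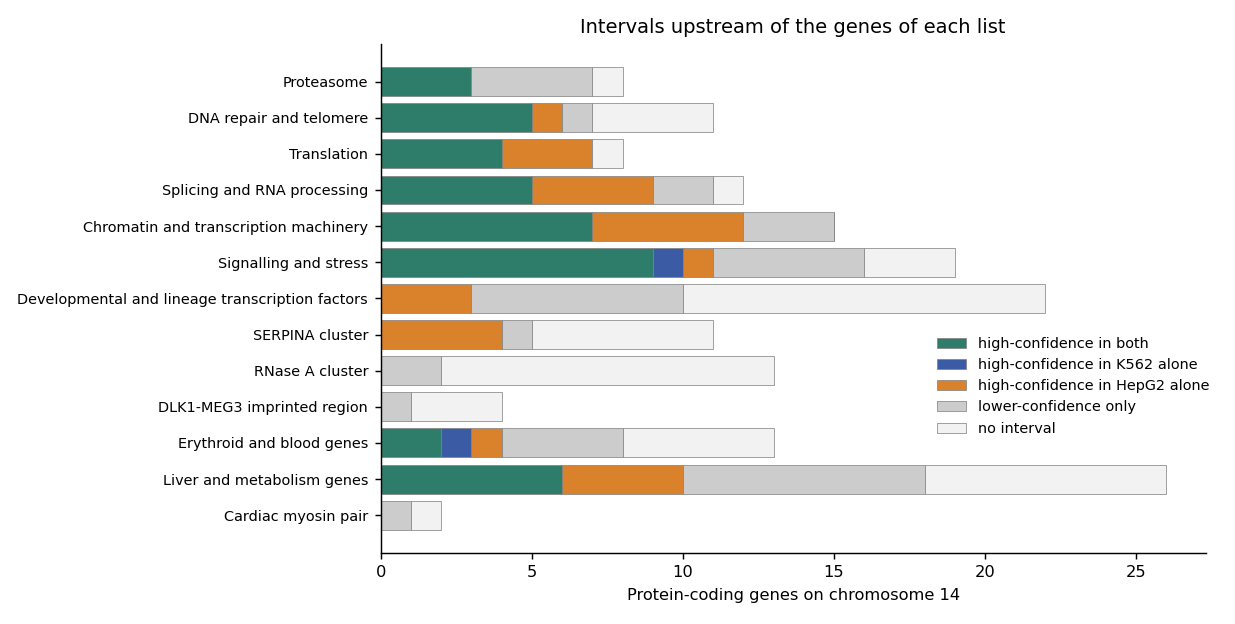
Number of protein-coding genes of chromosome 14 in each list, by whether a high-confidence peak lies in the 1 kb upstream of a TSS in both lines, in K562 alone or in HepG2 alone, or whether there is at best a lower-confidence interval or none. Developmental transcription factors have 0 of 22 genes in both lines and 3 in HepG2 alone, and the SERPINA cluster list, which includes GSC, has 0 of 11 and 4.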

How the data were processed

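G4 ChIP-seq of K562 and HepG2 was analysed from the 4 interval lists that the authors deposited. Their values are interval positions in bp on hg19 (other unit, no signal). As the study describes, reads were trimmed with cutadapt, aligned with BWA, freed of duplicates, passed to MACS2 for peak calls in each replicate (q-value 0.05) and merged with bedtools multiinter. The lists hold no counts, heights or depths, so depth per sample is unknown here and replicates could not be compared.

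Positions are 1-based. Intervals on chromosome 14 were compared with a 1 bp overlap, and placed on GRCh37 with GENCODE release 44 lifted to that build, whereas the study used release 19. Location order was 1 kb upstream of a TSS, 5′ UTR, 3′ UTR, coding exon, other exon, intron, 1 kb downstream, intergenic. Shares have 95% Wilson intervals and differences 95% Newcombe intervals. Ratios of counts have 95% intervals converted from the Wilson bounds of the HepG2 share of the intervals of both lines. No p-value was computed. Steps of 5 Mb took intervals and genes by centre and TSS. Loci joined intervals of all lists that overlapped.

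Named genes were those of the 5 widest peaks per class, the fullest, emptiest and most unequal steps and the members of 13 gene lists with a peak in 1 line. A few others were picked after their values were seen: the width examples of the proximal and distal parts, the stretches grouped by HepG2-only peaks, and examples from the 43 genes. The chromosome, lists and rules were chosen with earlier results of these data known. A few genes that these rules name are not reported here. Functions were tested on simulated data. Python 3.11.15, numpy 2.4.6, pandas 2.3.3 and pysam 0.24.0 were used.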

Additional observations from a re-analysis of the deposited data

How the results depend on the processing

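Of 79 alternative values, 58 stayed within the counting error or 1.5 times the main count, 21 moved and 0 reversed. With an overlap of 50% of the peak, the HepG2 common share was 31.9%. In the lower-confidence lists it was 23.6%, the line ratio 3.01, the promoter share 75.1% in K562 and 43.5% in HepG2, the HepG2 motif share 19.5%, and the genes 266 in K562, 370 in HepG2 and 245 in both. With TSSs of protein-coding transcripts only, the promoter share was 78.2% and 60.8%. With the 1 kb downstream added it was 74.6% in HepG2. Peaks of at least 100 bp gave 75.1% in promoters and 30.2% with a motif in HepG2. The motif share was 48.0% and 38.1% with loops up to 12, and 88.3% and 79.6% with runs of 2 G. The 2 fullest steps held 17.3% and 18.9% at 2 Mb, and 40.2% in K562 at 10 Mb. Promoter and motif shares therefore depend on the definition, while common peaks stayed above line-only peaks in promoter share under the 4 alternatives of width and TSS set tried, by 59.8 to 72.1 points in K562 and 44.3 to 52.9 in HepG2. The K562 values for line-only peaks rest on 16 intervals. No paired analysis was possible because the lists merge the replicates of a line. Leaving out a replicate was not possible for the same reason.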
